A study of Mus musculus with 24 samples.

Results

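The measurements below concern 85 protein-coding genes for carriers and channels of bicarbonate, protons, chloride and water and for the enzymes that serve them. They were chosen by symbol from 21734 protein-coding genes in the tables: every gene called Slc4a, Slc9a, Slc12a, Slc26a, Aqp, Clcn, Ano or Car followed by a number, except Slc4a2. The 8 families held 10 Slc4a genes, 11 Slc9a genes, 9 Slc12a genes, 11 Slc26a genes, 11 aquaporins, 7 Clcn genes, 10 anoctamins and 16 carbonic anhydrases. The symbols also took in 3 genes that are not transporters: Slc4a1ap, a nuclear protein also called kanadaptin, and Slc9a3r1 and Slc9a3r2, which encode the NHERF scaffolds that hold transporters at the apical membrane.

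The RNA came from intrahepatic cholangiocytes, which form the epithelium of the bile ducts within the liver, captured with an antibody and magnetic beads from mouse livers. The mice of each sex formed 4 groups: dnTGFB mice given secretin, untreated dnTGFB mice, WT mice given secretin and untreated WT mice. dnTGFB mice carry a dominant-negative TGF-β receptor II and stand here for primary biliary cholangitis, an autoimmune disease of small bile ducts. As background, the published line of this name expresses the transgene from a T cell promoter. An osmotic minipump, replaced after 1 month, delivered secretin at 4 µg/kg/day over 8 weeks, and those mice were killed at 40 weeks of age. Untreated WT mice were killed at 32 weeks, so the secretin comparison of WT mice also holds a difference in age. The sources used here do not state the age of untreated dnTGFB mice, so comparisons that include that group may hold one as well. Each group was a pool of cells from 6 to 8 mice, sequenced as 3 libraries, so p-values reflect how libraries of the same pool differ, and not how mice differ.

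The libraries held 1429218 to 104003184 counts, and 10 of 12 male and 6 of 12 female libraries were closest in their counts to a library of their own group. Groups follow the titles and the design text, while the genotype label differs from the title in 12 of the 24 libraries. Male dnTGFB library 3, the shallowest of all, carried neuronal markers at 5663 CPM (read counts scaled to a common library total, summed over 8 genes), heart muscle markers at 17020 CPM and kidney tubule markers at 975.4 CPM (10 genes, mostly Kap at 689.9 CPM), against 70.1 to 256.8 CPM of kidney markers in the other male libraries. Male WT library 1 was closer to a dnTGFB library than to its own group. Female dnTGFB libraries 1 and 2 and female WT secretin libraries 2 and 3 carried heart muscle markers at 56220 to 63810 CPM, against 433 to 2849 CPM in the other 8 female libraries. Female dnTGFB secretin library 1 and WT library 2 differed by little more than sampling noise (chi-square per gene 1.15) although they stand in different groups, as did dnTGFB secretin library 3 and WT secretin library 1 (1.45). The female-specific RNA Xist stood at 34.0 to 42.4 CPM in the male WT secretin libraries, and the Y-linked gene Ddx3y at 46.8 to 64.3 CPM in the 4 female libraries rich in heart muscle.

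Marker levels also differed between the male groups. The 10 biliary markers, among them the keratin Krt19 and the adhesion gene Epcam, summed to 8971 to 9122 CPM in dnTGFB secretin libraries, 1018 to 1079 CPM in dnTGFB libraries, 3597 to 3645 CPM in WT secretin libraries, and 2300, 5552 and 5559 CPM in WT libraries. Hepatocyte markers summed to 3832 to 3858 CPM in dnTGFB secretin, 3419 to 11690 CPM in dnTGFB, 13930 to 14610 CPM in WT secretin and 2941 to 8672 CPM in WT. The share of counts from the mitochondrial genome was 5.31% to 5.66% in dnTGFB secretin, 11.4% to 55.1% in dnTGFB, 19.4% to 19.5% in WT secretin and 9.73% to 42.8% in WT. In such bulk samples, fewer cells of a type and less RNA per cell cannot be told apart.

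**Figure D1:**
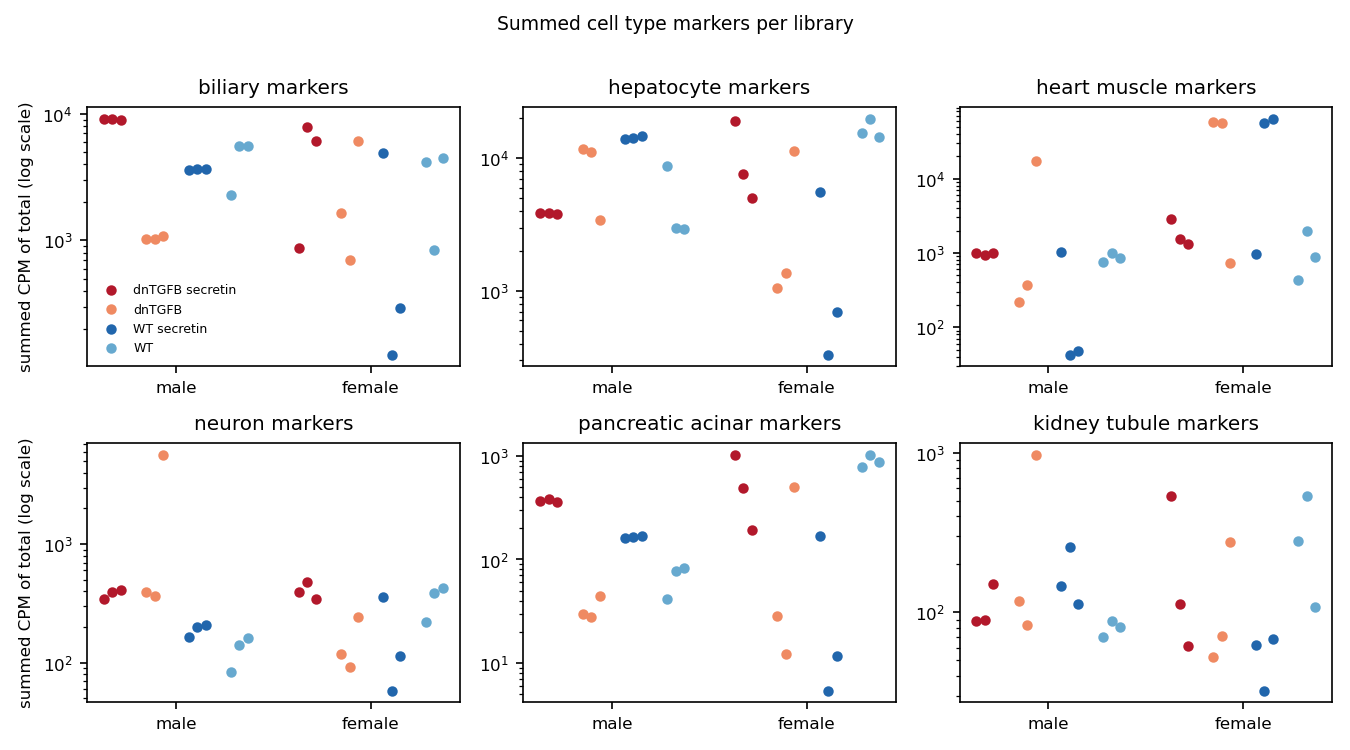
Summed marker genes of 6 cell types in each library, in CPM of the library total on a log axis, with the 3 libraries of each group in the order dnTGFB secretin, dnTGFB, WT secretin, WT for males (left) and females (right). Biliary markers reached 9122 CPM in male dnTGFB secretin libraries and did not exceed 1079 CPM in male dnTGFB libraries, and heart muscle markers were at 56220 CPM or more in 4 female libraries.

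Bile duct cells turn the bile made by hepatocytes alkaline and watery. Secretin binds its receptor on the basolateral membrane, raises cAMP and opens the chloride channel CFTR, and chloride that leaves the cell is exchanged for bicarbonate by apical exchangers. Basolateral cotransporters and sodium-proton exchangers bring in bicarbonate or remove protons, carbonic anhydrases interconvert carbon dioxide and bicarbonate, and water follows through aquaporins. Slc4a2, the chloride-bicarbonate exchanger long described for cholangiocytes, is set beside the 85 genes below with Cftr and the secretin receptor gene Sctr, but is not counted among them.

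Levels are given in CPM scaled by the TMM method, separately in each sex, and between genes only per kilobase of the gene length in the tables. Aqp1, the water channel of bile ducts and of endothelium, was the highest of the 85 genes at a mean of 499.5 CPM per kb over the 24 libraries. It was followed by the scaffolds Slc9a3r2 at 68.8 and Slc9a3r1 at 44.3 CPM per kb, by Slc26a10 at 37.0, Car2, the main cytosolic carbonic anhydrase, at 29.8, Car3 at 27.2 and Car8, which has no enzyme activity, at 26.8 CPM per kb. The highest members of the other families were Ano6, a calcium-activated lipid scramblase, at 17.3, the potassium-chloride cotransporter gene Slc12a7 at 17.1, the anion exchanger gene Slc4a3 at 10.7 and the chloride-proton exchanger gene Clcn4 at 9.59 CPM per kb. Over the 20 libraries without the 4 female ones rich in heart muscle, Slc4a3 was at 4.57 CPM per kb, close to Slc4a4 at 4.23, while Slc12a7 was at 12.8, Clcn4 at 8.85 and Ano6 at 18.8 CPM per kb. Slc26a5, the motor protein of hair cells, was listed at 0 in 18 of 24 libraries and Car6, the secreted salivary enzyme, in 16. Of the 85 genes, 78 passed the low-count filter in the male fit, 81 in the female fit and 80 in the fit of all libraries. The 7 not tested in males were Ano2, Aqp6, Aqp12, Car1, Car6, Clcn1 and Slc26a5, and the 4 not tested in females were Aqp6, Car6, Slc26a5 and Slc4a5.

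**Figure D2:**
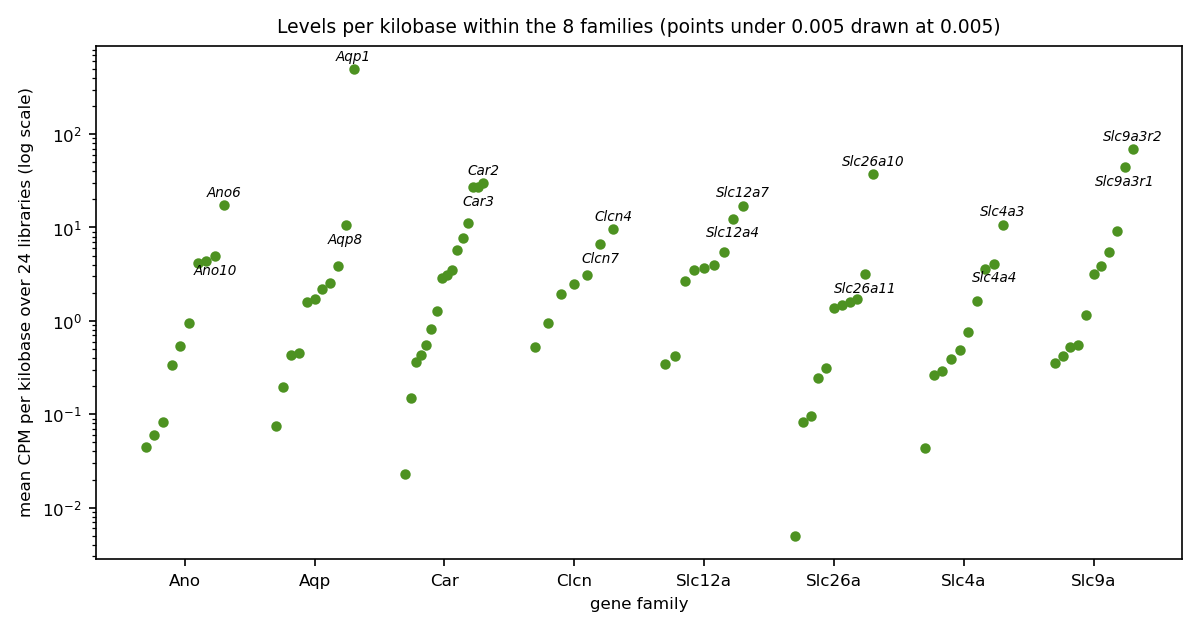
Mean CPM per kilobase over 24 libraries (log axis) of each of the 85 genes, 1 point per gene, ordered within its family, with the 2 highest genes of each family named. Aqp1 stood highest at 499.5 CPM per kb, and the lowest member, Slc26a5, lay under 0.005 CPM per kb.

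Levels also differed in how far they moved across libraries. The steadiest member was Slc4a1ap, with a ratio of 1.90 between its highest and lowest of the 24 libraries, and low ratios were also found for the endosomal chloride-proton exchanger gene Clcn3 at 2.42 and Aqp11 at 2.54. Slc12a2, the basolateral sodium-potassium-chloride cotransporter NKCC1 of secretory epithelia, had a ratio of 2.69.

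In males, secretin treatment of dnTGFB mice coincided with higher levels of Slc4a4, Car2, Car9 and Slc26a3, called the bicarbonate genes below. They are among the members that rose in this comparison and do not stand for their families. Of the Car genes, 2 were called higher and 5 lower in dnTGFB secretin over dnTGFB. Of the Slc4a genes 1 was higher and 2 lower, and of the Slc26a genes 3 were higher and 1 lower. Slc4a4, which encodes the electrogenic sodium-bicarbonate cotransporter NBCe1 (chromosome 5, 88886818 to 89239653, GRCm38), stood at 114, 117 and 114 CPM in the 3 dnTGFB secretin libraries, against 21.8, 23.1 and 32.9 CPM in dnTGFB libraries. The dnTGFB secretin libraries were also above all WT secretin libraries, at 34.4, 31.3 and 32.1 CPM, and all WT libraries, at 29.0, 28.6 and 26.0 CPM. The log2 fold change of dnTGFB secretin over dnTGFB was 2.18 ± 0.16 (SE), a fold of 4.54 (adjusted p 3.08e-05, edgeR's quasi-likelihood test, Benjamini-Hochberg adjusted over all 18777 genes tested, as for the other male tests).

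Car2 (chromosome 3, 14886273 to 14900770) had 221, 217 and 218 CPM in dnTGFB secretin, against 40.5, 38.8 and 68.1 CPM in dnTGFB. WT secretin libraries held 38.8, 44.6 and 43.8 CPM, and WT libraries held 52.4, 70.6 and 72.9 CPM. All dnTGFB secretin libraries lay above the 9 others, with a log2 fold change over dnTGFB of 2.18 ± 0.23 (adjusted p 0.000211).

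Car9, a carbonic anhydrase on the outer cell surface that is known as a hypoxia-inducible gene (chromosome 4, 43506966 to 43513729), had 53.7, 53.8 and 53.5 CPM in dnTGFB secretin, against 2.88, 5.65 and 4.70 CPM in dnTGFB. WT secretin libraries held 14.0, 14.5 and 12.6 CPM, and WT libraries held 11.03, 16.5 and 19.1 CPM. The dnTGFB libraries were thus the lowest and the dnTGFB secretin libraries the highest, with no overlap with any other group. The log2 fold change of dnTGFB secretin over dnTGFB was 3.61 ± 0.27, a fold of 12.2 (adjusted p 3.86e-05).

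Slc26a3, a chloride-bicarbonate exchanger best known from the apical membrane of the colon (chromosome 12, 31390871 to 31473917), had 27.1, 26.2 and 26.7 CPM in dnTGFB secretin, against 1.15, 2.22 and 3.52 CPM in dnTGFB. It stood at 6.86, 5.005 and 7.72 CPM in WT secretin and at 5.21, 6.51 and 7.13 CPM in WT. As for Car9, the dnTGFB libraries were the lowest and the dnTGFB secretin libraries the highest of the 12, and the log2 fold change between them was 3.74 ± 0.33 (adjusted p 9.97e-05).

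**Figure D3:**
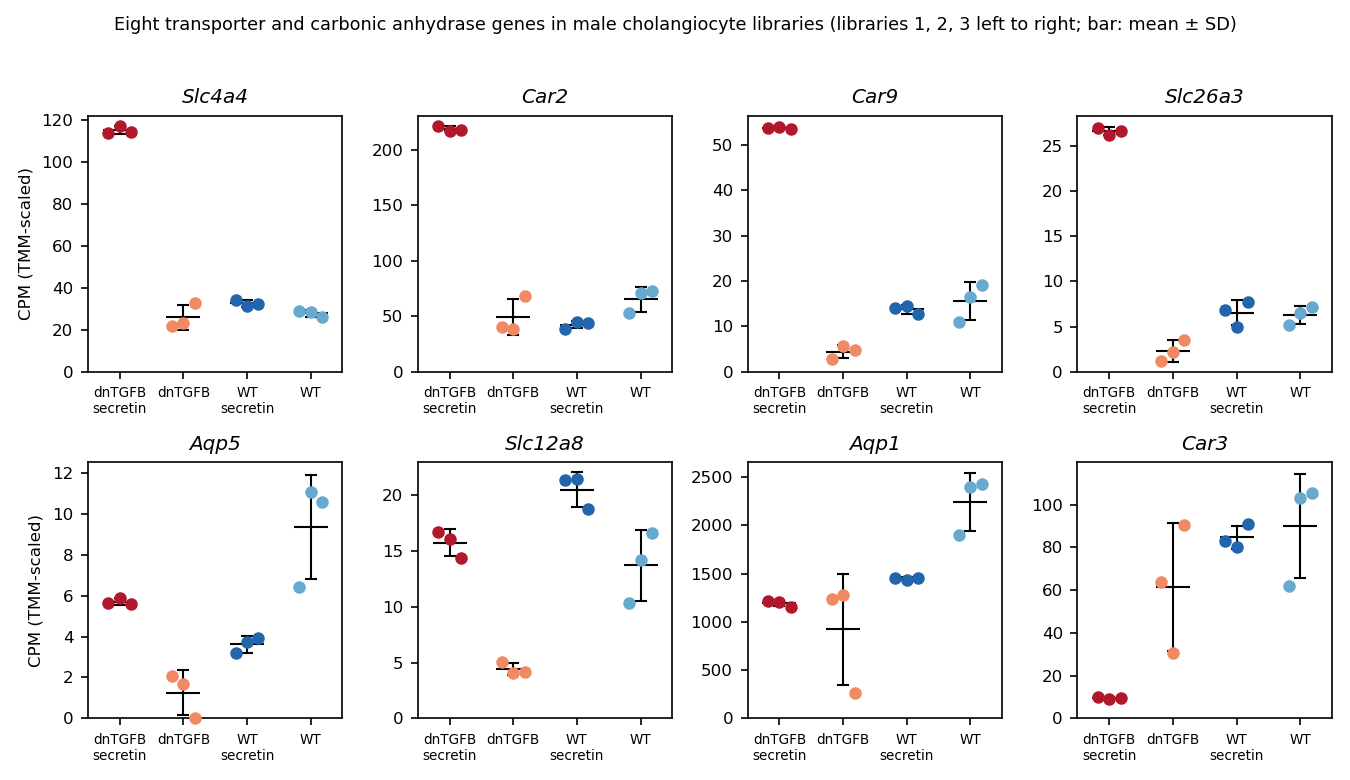
CPM (TMM-scaled) of 8 genes in the 12 male libraries, with libraries 1, 2 and 3 of each group from left to right as points and the mean ± SD as bars, in the order dnTGFB secretin, dnTGFB, WT secretin, WT. For Slc4a4, Car2, Car9 and Slc26a3 the 3 dnTGFB secretin libraries lie above the other 9, and for Car3 they lie below them, at 8.89 to 10.01 CPM.

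The promoters of Slc4a4, Car9 and Slc26a3 are shown because these genes moved together in the male libraries. RefSeq windows of 300 bases on GRCm38.p6, from 250 before to 50 after a start, were matched for 65 of the 85 genes, in 86 windows. Both strands were searched for the cAMP response element TGACGTCA, its core TGACG and the hypoxia response core ACGTG. Capitals mark any match, read on either strand. Slc4a4 has 2 windows, at chr5:88887010-88887309 and chr5:89027716-89028015, Car9 has 1 at chr4:43506776-43507075, and Slc26a3 has 1 at chr12:31437969-31438268, all on the plus strand.
Slc4a4 upstream start: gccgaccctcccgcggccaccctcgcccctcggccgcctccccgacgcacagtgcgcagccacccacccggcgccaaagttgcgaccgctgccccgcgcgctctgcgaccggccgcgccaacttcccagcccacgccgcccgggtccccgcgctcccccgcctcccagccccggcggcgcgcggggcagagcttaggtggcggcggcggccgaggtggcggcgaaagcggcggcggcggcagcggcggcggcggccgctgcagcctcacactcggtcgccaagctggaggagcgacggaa
Slc4a4 downstream start: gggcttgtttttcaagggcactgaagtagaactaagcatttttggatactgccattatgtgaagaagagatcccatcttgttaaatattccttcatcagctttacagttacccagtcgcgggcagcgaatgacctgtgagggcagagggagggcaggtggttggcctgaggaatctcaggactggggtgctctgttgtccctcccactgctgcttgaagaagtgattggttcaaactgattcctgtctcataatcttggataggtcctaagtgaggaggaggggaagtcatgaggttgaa
Car9: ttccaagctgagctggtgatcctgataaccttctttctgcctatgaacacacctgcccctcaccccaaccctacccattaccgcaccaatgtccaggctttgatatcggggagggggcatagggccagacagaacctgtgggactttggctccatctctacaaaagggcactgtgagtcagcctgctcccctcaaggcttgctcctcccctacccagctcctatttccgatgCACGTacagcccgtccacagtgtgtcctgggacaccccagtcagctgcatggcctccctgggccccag
Slc26a3: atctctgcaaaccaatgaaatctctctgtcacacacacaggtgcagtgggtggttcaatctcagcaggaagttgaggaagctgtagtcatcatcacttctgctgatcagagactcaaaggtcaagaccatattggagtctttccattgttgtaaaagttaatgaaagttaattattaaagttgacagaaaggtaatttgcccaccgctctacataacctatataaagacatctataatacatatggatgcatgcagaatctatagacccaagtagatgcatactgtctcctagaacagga

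The 4 windows had little in common in base composition: G and C made up 80.0% and 48.3% of the upstream and downstream windows of Slc4a4, 58.3% of that of Car9 and 39.3% of that of Slc26a3, against a median of 59.0% over the 86 member windows and 52.7% over all 32851 windows. The Car9 window held 1 hypoxia response core, on the minus strand. The Slc26a3 window and both Slc4a4 windows held none of the 3 letter strings. Over the 86 member windows, the hypoxia response core was in 26.7%, against 19.6% of all windows, the cAMP response element was in 2.33% against 1.79%, and its core, which lies within it, in 17.4% against 20.8%. These shares were not adjusted for base composition, which differs between the member windows and all windows.

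Of the 78 members tested in this comparison, 15 rose and 11 fell, which is 33.3%, while 22.6% of all genes tested were called, 10.1% higher and 12.4% lower. The median log2 fold change was -0.05 over the members and -0.05 over all genes. Without male WT library 1 and dnTGFB library 3, 24 rose and 18 fell, among them all 26, and 46.6% of all genes were called. DESeq2 called 36 members, with 33.1% of all genes. With only the 6 libraries compared, 6 rose and 1 fell, and 2.90% of all genes were called. Slc4a4, Car2, Car9, Slc26a3, Slc12a8 and Car3 were called in each of the 13 alternatives run for this comparison, and 10 of the 26 were called whichever library was left out.

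Beside these 4 genes, several partners in secretion rose in dnTGFB secretin over dnTGFB. Slc12a2 had 33.6, 31.6 and 34.6 CPM in dnTGFB secretin, against 22.4, 18.6 and 14.1 CPM in dnTGFB, a log2 fold change of 0.82 ± 0.16 (adjusted p 0.00688). Slc12a8, a cation-chloride cotransporter family member, had 16.7, 16.1 and 14.4 CPM against 5.08, 4.08 and 4.11 CPM in dnTGFB, a change of 1.81 ± 0.21 (adjusted p 0.000443). The potassium-chloride cotransporter gene Slc12a7 rose by less, with a log2 fold change of 0.59 ± 0.16.

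Among sodium-proton exchangers, Slc9a4, known from the stomach, rose by 1.51 ± 0.28 on the log2 scale (4.38 to 5.496 CPM in dnTGFB secretin, 1.67 to 1.76 CPM in dnTGFB), and Slc9a3, the apical exchanger NHE3, rose by 2.44 ± 0.58 at low levels of 1.55 to 1.77 CPM in dnTGFB secretin and 0.185 to 0.587 CPM in dnTGFB. In dnTGFB library 3 these levels rest on 3 counts for Slc9a4 and 1 count for Slc9a3. Gm37435 on the opposite strand covers 16.7% of the exon bases of Slc9a4. In all, 9 of the 11 Slc9a genes were not called.

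Anion carriers and channels that rose were Slc26a2, the sulfate transporter of cartilage, at 39.7 to 43.2 CPM in dnTGFB secretin and 6.46 to 21.9 CPM in dnTGFB (1.24 ± 0.30), and Slc26a9, a chloride carrier of airway and stomach, at 3.72 to 4.54 CPM and 1.15 to 1.30 CPM (1.71 ± 0.41). Ano6 stood at 168 to 174 CPM in dnTGFB secretin and 34.6 to 80.4 CPM in dnTGFB (1.42 ± 0.25). Ano9 stood at 9.55 to 10.7 CPM and 1.76 to 5.89 CPM (1.54 ± 0.37). In dnTGFB library 3 the levels of Slc26a9 and Ano9 rest on 2 and 3 counts. Ano1, the calcium-activated chloride channel of secretory epithelia, did not pass the test (0.34 ± 0.40, adjusted p 0.565). It had 29.6 to 32.3 CPM in dnTGFB secretin, and 28.8, 34.9 and 4.70 CPM in dnTGFB, where the low value is library 3. None of the 6 Clcn genes tested was called, and Clcn3 had a log2 fold change of 0.13 ± 0.24.

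Among the 11 aquaporins, Aqp5 rose, Aqp9 fell and the others were not called or not tested. Aqp1 had 1219, 1206 and 1158 CPM in dnTGFB secretin and 1233, 1273 and 261 CPM in dnTGFB, where only library 3 was low, and the log2 fold change of 0.37 ± 0.45 did not pass the test (adjusted p 0.573). Without male WT library 1 and dnTGFB library 3 the value was -0.07 ± 0.03. Aqp5, the water channel of salivary and airway glands, rose by 1.86 ± 0.43, with 5.64, 5.89 and 5.59 CPM in dnTGFB secretin against 2.08, 1.67 and 0 CPM in dnTGFB. In that last library 3 counts correspond to 2.10 CPM of the total, or 1.76 CPM after TMM scaling. Its 0 thus does not set it apart from the dnTGFB library at 1.67 CPM.

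The genes that fell had varied roles. Car3, an enzyme abundant in muscle, fat and liver (chromosome 3, 14863512 to 14872523), had 10.01, 8.89 and 9.67 CPM in dnTGFB secretin, against 63.7, 30.5 and 90.5 CPM in dnTGFB, a change of -2.67 ± 0.34 (adjusted p 0.000864). Car7, a cytosolic enzyme, had 1.34 to 1.82 CPM in dnTGFB secretin and 3.89 to 7.05 CPM in dnTGFB (-1.70 ± 0.26). Ano3 (-3.13 ± 0.81), Car10 (-2.86 ± 0.76), Car14 (-2.64 ± 0.60), the neuronal bicarbonate transporter gene Slc4a10 (-2.30 ± 0.59) and the neuronal potassium-chloride cotransporter gene Slc12a5 (-1.53 ± 0.48) each had their highest value in dnTGFB library 3. Without male WT library 1 and dnTGFB library 3, Ano3, Car10, Car14 and Slc4a10 still fell, by 1.15, 1.09, 1.55 and 1.09 on the log2 scale.

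Aqp9, a glycerol and water channel of hepatocytes, and Car5a, a mitochondrial enzyme of liver, fell by 1.61 ± 0.48 and 2.67 ± 0.59. Aqp9 had 10.7 to 11.4 CPM in dnTGFB secretin, against 45.2, 39.9 and 12.9 CPM in dnTGFB, where the hepatocyte markers summed to 11690, 11050 and 3419 CPM. The low-level gene Slc4a5 fell by 3.68 ± 1.03, and Slc26a6, a chloride-oxalate and bicarbonate exchanger, by 0.72 ± 0.22, with 2.82 to 3.38 CPM in dnTGFB secretin and 4.50 to 5.84 CPM in dnTGFB. The value of Slc26a6 was 0.12 when library totals were used for scaling. With that scaling the median log2 fold change over all genes was 0.75, and 32 members were called higher and 6 lower, with 40.1% of all genes called.

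The biliary markers moved in the direction of the members that rose: 10 of 10 were higher in dnTGFB secretin than in dnTGFB libraries, with a median log2 fold change of 2.02. Their summed levels did not overlap (8971 to 9122 CPM and 1018 to 1079 CPM). None of the 10 was at 0 in any male library. Macrophage markers were higher in 8 of 8 cases, at 925 to 953 CPM in dnTGFB secretin and 133 to 157 CPM in dnTGFB, pancreatic acinar markers in 6 of 7, at 356 to 384 CPM and 27.9 to 44.8 CPM, and hepatocyte markers lower in 5 of 10 cases, with a median of -2.01. Their part in the result was not tested.

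Genes around the transporters were described from 4 lists, none of them chosen by the transporter rule. Of 20 partners of ductal secretion tested, 8 rose and 1 fell in dnTGFB secretin over dnTGFB, with a list median of 0.77. They included Cftr (17.1, 15.2 and 16.2 CPM in dnTGFB secretin, 3.69, 3.52 and 0 CPM in dnTGFB, change 2.46 ± 0.46), the sodium-glucose cotransporter gene Slc5a1 (2.39 ± 0.24), the bile acid transporter gene Slc10a2 (1.77 ± 0.29), and the potassium channel genes Kcnn4 (1.76 ± 0.37) and Kcnq1 (0.82 ± 0.15) with the channel subunit Kcne3 (1.89 ± 0.24). Slc4a2 did not pass the test (0.41 ± 0.17, adjusted p 0.0953), with 45.9 to 46.3 CPM in dnTGFB secretin and 24.1 to 40.2 CPM in dnTGFB.

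Of 12 other chloride and volume channel genes tested, 6 rose and 1 fell, with Clic6 (2.66 ± 0.29) and the volume-regulated channel subunit Lrrc8e (2.20 ± 0.30) among the risers. Of 19 genes for the secretin receptor and cAMP signalling, 2 rose and 6 fell. Sctr had 12.8, 13.2 and 11.3 CPM in dnTGFB secretin, against 1.73, 2.13 and 1.76 CPM in dnTGFB (2.70 ± 0.63, adjusted p 0.0165), and the other riser was the adenylyl cyclase gene Adcy6 (0.54 ± 0.13). The fallers included the secretin gene Sct (-2.39 ± 0.53) and the stimulatory G protein gene Gnas (-1.14 ± 0.21). Of 14 kinases and scaffolds, 3 rose, namely Wnk4, Oxsr1 and the membrane linker Ezr (1.65 ± 0.23), and 4 fell.

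With both groups on secretin, dnTGFB males still had more of the 4 bicarbonate genes than WT males. The dnTGFB secretin libraries are the same as in the comparison above. The WT secretin libraries carried both Ddx3y, at 77.6 to 81.8 CPM, and Xist, at 34.0 to 42.4 CPM. Xist was at 0.206 to 1.31 CPM in dnTGFB secretin libraries, so the sex of the WT secretin RNA is in doubt. Over WT secretin libraries, the log2 fold change was 2.37 ± 0.22 for Car2 (adjusted p 0.000139), 2.03 ± 0.27 for Slc26a3 (0.000962), 1.97 ± 0.24 for Car9 (0.000561) and 1.82 ± 0.15 for Slc4a4 (7.56e-05). Slc26a9 was higher by 1.96 ± 0.37, with 3.72 to 4.54 CPM in dnTGFB secretin and 0.714 to 1.37 CPM in WT secretin, and Ano9, Slc26a2 and Slc12a2 by 1.55 ± 0.35, 1.07 ± 0.29 and 0.67 ± 0.15. Car3 had a log2 fold change of -3.15 ± 0.35, with 8.89 to 10.01 CPM in dnTGFB secretin and 80.3 to 90.9 CPM in WT secretin, and Car7 one of -2.23 ± 0.25. Slc9a7 (-1.65 ± 0.42), Slc9a3r2 (-0.85 ± 0.25) and Slc26a6 (-0.74 ± 0.21) were also lower.

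These 8 rises and 5 falls were 16.7% of the 78 members tested, while 12.9% of all genes were called, 5.75% higher and 7.19% lower, and the medians were -0.06 over members and -0.01 over all genes. The 4 bicarbonate genes, Slc26a9, Car3 and Car7 were called in each of the 13 alternatives. The count was 41 without male WT library 1 and dnTGFB library 3, when 50.9% of all genes were called, and 43 with only the 6 libraries compared, when 59.2% of all genes were called. Both included all 13. Of the 10 biliary markers, 8 were higher in dnTGFB secretin, with a median of 1.29, and their part in the result was not tested. Cftr and Sctr did not pass the test here, at 1.15 ± 0.41 (adjusted p 0.0921) and 1.23 ± 0.54 (0.158). Of the lists, 1 partner of secretion, Slc10a2 (0.94 ± 0.27), and 1 chloride channel gene, Lrrc8a (1.14 ± 0.29), were higher, and Gnas and Adcy6 were lower.

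**Figure D4:**
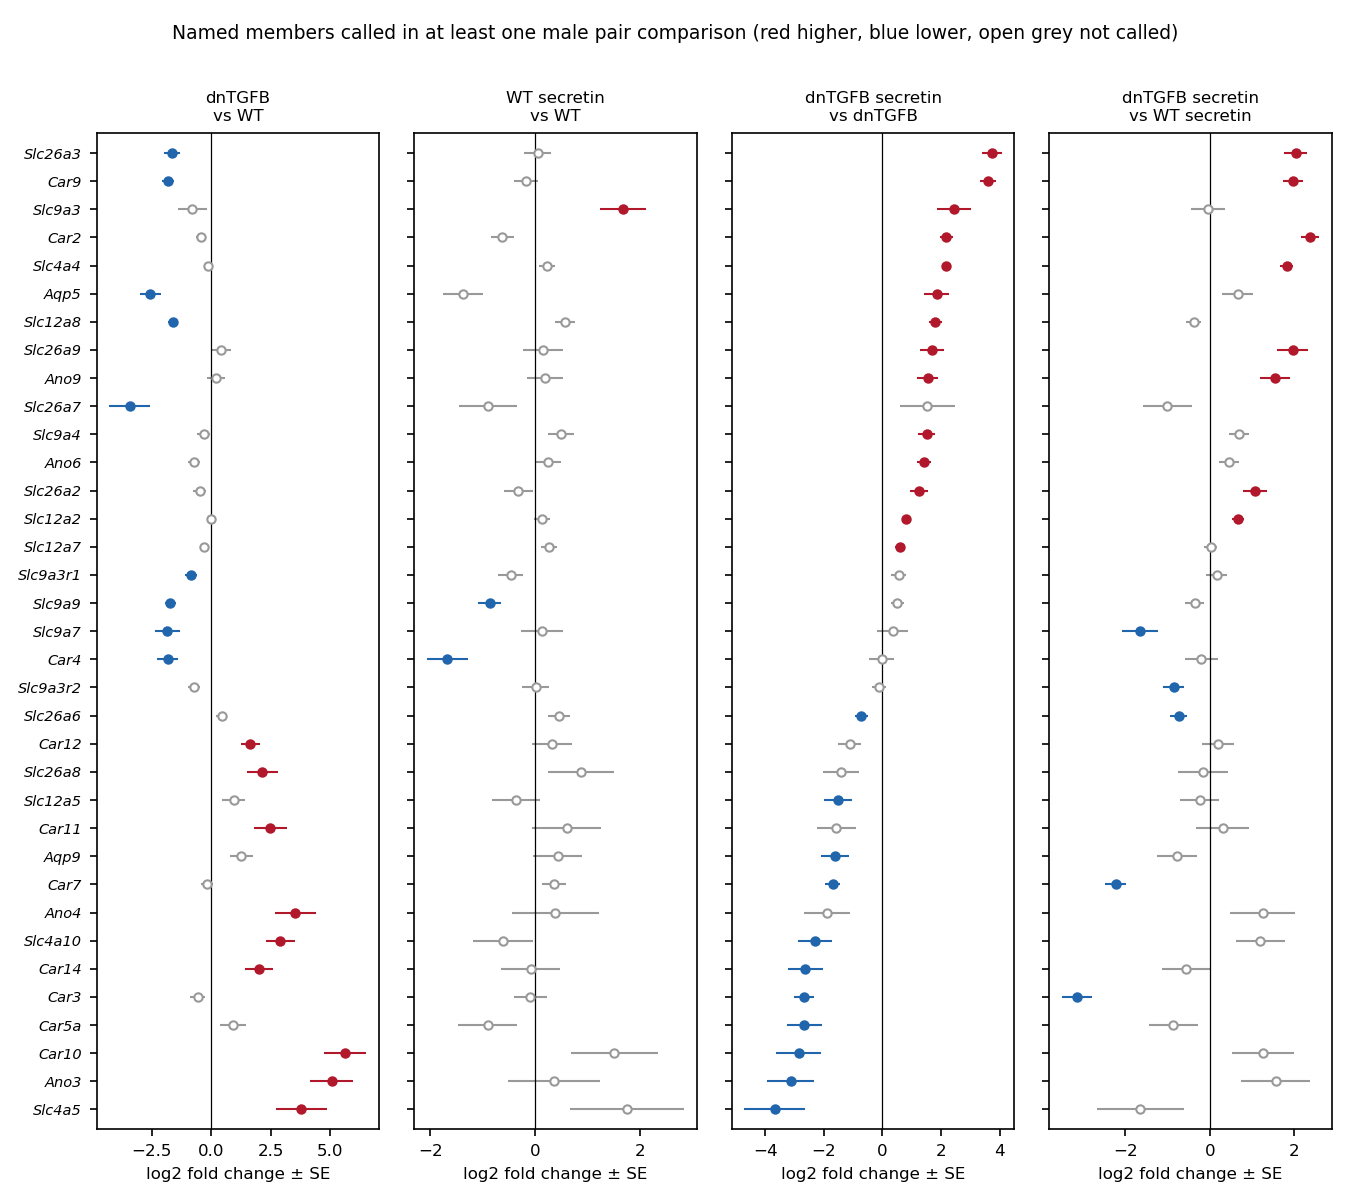
Log2 fold change ± SE of 35 members called in at least 1 of 4 male comparisons (panels, each with its own axis), ordered by the change in dnTGFB secretin over dnTGFB. Filled red and blue points were called higher and lower at an adjusted p under 0.05, and open grey points were not called. Car9 and Slc26a3 lie to the left of 0 in dnTGFB over WT and to the right in dnTGFB secretin over dnTGFB and over WT secretin.

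Without secretin, the transgene went with lower levels of several of the same kinds of genes in males. Aqp5 had 2.08, 1.67 and 0 CPM in dnTGFB, against 6.43, 11.07 and 10.6 CPM in WT, a log2 fold change of -2.57 ± 0.43 (adjusted p 0.00505). Slc9a9, an endosomal sodium-proton exchanger, had 22.6, 22.1 and 10.6 CPM in dnTGFB, against 51.6, 69.2 and 70.0 CPM in WT (-1.73 ± 0.23, adjusted p 0.00346). Car9 fell by 1.83 ± 0.26, Slc26a3 by 1.66 ± 0.32 and Slc12a8 by 1.61 ± 0.21, and for each of them the groups did not overlap.

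Other falls were those of Car4, a membrane-anchored enzyme of endothelium and epithelium (-1.84 ± 0.44), the scaffold gene Slc9a3r1 (-0.85 ± 0.25), and the low-level genes Slc26a7 (-3.43 ± 0.86) and Slc9a7 (-1.86 ± 0.52). Slc4a4 and Car2 did not pass the test, at -0.14 ± 0.15 (adjusted p 0.562) and -0.43 ± 0.22 (0.187), and were called lower without dnTGFB library 3 and WT library 1, at -0.28 ± 0.09 and -0.86 ± 0.07. Aqp1 had 1233, 1273 and 261 CPM in dnTGFB, against 1895, 2396 and 2428 CPM in WT, without overlap. Its change of -1.28 ± 0.45 missed the threshold (adjusted p 0.0761), and was -0.95 ± 0.03 without dnTGFB library 3 and WT library 1. Endothelial markers, whose cells also express Aqp1, summed to 793 to 1931 CPM in dnTGFB and 3078 to 5978 CPM in WT, and their part in the result was not tested.

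The rises in dnTGFB over WT were led by genes known mainly from the nervous system. Car10, a carbonic anhydrase relative without enzyme activity (chromosome 11, 93098028 to 93601749), had 7.50, 7.32 and 66.4 CPM in dnTGFB, against 0.563, 0.298 and 0.645 CPM in WT (5.63 ± 0.89, adjusted p 0.00472). Ano3 had 5.66, 4.35 and 54.0 CPM in dnTGFB, against 0.469, 0.681 and 0.604 CPM in WT (5.05 ± 0.91). For both genes library 3 was by far the highest, but the other dnTGFB libraries were also above all WT libraries. Slc4a10 (2.89 ± 0.61), Ano4 (3.52 ± 0.86), Car11 (2.48 ± 0.69), Car14 (1.99 ± 0.59) and Car12 (1.64 ± 0.41) followed the same order.

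Neuronal markers rose with them, in 8 of 8 cases, and summed to 396, 369 and 5663 CPM in dnTGFB, against 84.0 to 163 CPM in WT. Kidney tubule markers summed to 118.3, 82.99 and 975.4 CPM in dnTGFB, against 70.1 to 87.9 CPM in WT. Car12, known from kidney tubules among other epithelia, had 4.85, 3.15 and 9.40 CPM in dnTGFB and 1.24 to 2.16 CPM in WT. Aqp2, Slc12a3 and Slc26a4 also had their highest male values in dnTGFB library 3, at 9.40, 8.81 and 3.52 CPM. These rest on 16, 15 and 6 counts, and 30.2% of all genes tested were higher there than in every other male library. In the kidney list Kap, Pvalb, Calb1, Slc34a1 and Fxyd2 led there, at 689.9, 107.1, 69.3, 44.1 and 42.7 CPM. Umod and Lrp2 were at 4.90 and 6.30 CPM, against up to 5.40 and 6.24 CPM in the other male libraries. The part of neither marker list in the result was tested. Without dnTGFB library 3 and WT library 1 the changes were smaller and still called: 3.94 for Car10, 2.94 for Ano3, 1.62 for Slc4a10, 1.87 for Ano4, 0.93 for Car11, 1.01 for Car14 and 1.41 for Car12. The remaining 2 rises, of Slc26a8 and Slc4a5, were at means under 1 CPM. In Car14, 17.5% of the exon bases overlap Aph1a on the opposite strand.

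In all, 9 members rose and 10 fell in dnTGFB over WT, 24.4% of the 78 tested, while 17.0% of all genes were called, 8.55% higher and 8.46% lower, and both medians were 0.01. The count was 45 without male WT library 1 and dnTGFB library 3, including all 19, when 47.4% of all genes were called, and 32 without dnTGFB library 3 alone, with 34.2% of all genes. It was 10 and 9 without WT library 2 or 3, with 6.61% and 6.38% of all genes, and 0 with only the 6 libraries compared, with 0.0% of all genes. With library totals as the scale, 6 were higher and 22 lower, with 27.8% of all genes called, at a median over all genes of -0.44. Biliary markers were lower in 10 of 10 cases, with a median of -1.35, and their part in the result was not tested. Of the partners of secretion, 6 of 20 fell, among them Slc5a1 (-2.08 ± 0.24) and Kcne3 (-1.62 ± 0.24), and 1 rose. Of the chloride and volume channels, 5 of 12 fell, Clic6 by 1.98 ± 0.29, while 3 of 19 signalling genes rose and 1 fell, and 2 of 14 kinases and scaffolds rose and 2 fell. Cftr did not pass the test (-0.58 ± 0.46), nor did Sctr (0.01 ± 0.63).

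Secretin in WT males coincided with few called changes. The sex of the WT secretin RNA is in doubt here as well. Slc9a3 rose by 1.68 ± 0.44, with 1.67, 1.23 and 2.15 CPM in WT secretin and 0.235, 0.554 and 0.765 CPM in WT (adjusted p 0.0491). Car4 had 4.28, 6.04 and 4.36 CPM in WT secretin, against 12.7, 17.7 and 16.4 CPM in WT (-1.67 ± 0.39, adjusted p 0.0306), and Slc9a9 had 33.2, 36.9 and 35.3 CPM, against 51.6, 69.2 and 70.0 CPM (-0.86 ± 0.22, adjusted p 0.0430). These 3 genes were 3.85% of the members tested, below the 6.22% of all genes called, 3.55% higher and 2.67% lower, and the median was 0.12 over members and 0 over all genes. DESeq2 called 9 members, with 16.6% of all genes, and edgeR 18 with only the 6 libraries compared, with 28.3% of all genes. In edgeR each of the 3 genes was lost when WT library 2 or 3 or any WT secretin library was left out.

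The 4 bicarbonate genes did not pass the test in WT males: the changes were 0.23 ± 0.15 for Slc4a4 (adjusted p 0.436), -0.62 ± 0.21 for Car2 (0.120), and 0.05 ± 0.26 and -0.18 ± 0.23 for Slc26a3 and Car9. Without male WT library 1 and dnTGFB library 3, 28 members were called, 18 of them higher, when 40.5% of all genes were called. Slc4a4 then rose, with a log2 fold change of 0.26 ± 0.07, and Car2 fell, with -0.76 ± 0.06. Of the lists, P2ry1 (-0.98 ± 0.18) and Lrrc8a (-1.17 ± 0.29) fell, and no signalling gene or kinase was called. Cftr, Sctr and Slc4a2 did not pass the test, at 0.73 ± 0.42, 1.47 ± 0.56 and 0.56 ± 0.16.

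The difference between the secretin effects was itself tested in males, as the effect in dnTGFB minus the effect in WT. This difference also rests on the WT secretin libraries, in which the sex of the RNA is in doubt. It was positive for Car9 (3.80 ± 0.35, adjusted p 0.000265), Slc26a3 (3.69 ± 0.42, 0.000655), Aqp5 (3.23 ± 0.57, 0.00583), Car2 (2.80 ± 0.31, 0.000571) and Slc4a4 (1.96 ± 0.22, 0.000558), and these 5 were called in each of the 18 alternatives. It was also positive for Slc26a2, Slc9a9, Slc12a8 and Ano6, and negative for Slc4a5, Car10, Car3 (-2.58 ± 0.46), Car7 (-2.06 ± 0.35) and Slc26a6. These 14 were 17.9% of the members tested, while 15.6% of all genes were called, 8.1% positive and 7.51% negative, at medians of -0.09 and -0.07. Without male WT library 1 and dnTGFB library 3 the count was 46, including all 14, with 48.9% of all genes called, and DESeq2 called 32, with 28.7% of all genes. All 10 biliary markers differed in the same direction, with a median of 2.69, and 7 of 20 partners of secretion and 5 of 12 chloride channels were positive. Of the signalling genes 3 of 19 were negative, and of the kinases and scaffolds 2 were positive and 1 negative.

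In females none of the 4 bicarbonate genes was called in any comparison of a pair of groups. Slc4a4 had 21.8, 43.1 and 35.5 CPM in dnTGFB secretin, 44.3, 44.5 and 76.0 CPM in dnTGFB, 30.1, 30.6 and 30.7 CPM in WT secretin, and 55.2, 18.6 and 30.3 CPM in WT. Car2 had 43.3, 70.9 and 50.5 CPM in dnTGFB secretin, 43.9, 35.8 and 110 CPM in dnTGFB, 42.0, 16.7 and 15.8 CPM in WT secretin, and 82.0, 45.3 and 51.8 CPM in WT. Car9 ranged from 1.46 to 22.2 CPM in dnTGFB secretin, 7.68 to 38.1 CPM in dnTGFB, 1.36 to 11.4 CPM in WT secretin and 1.12 to 32.4 CPM in WT. The dnTGFB secretin libraries lay below all dnTGFB libraries in Slc4a4 and above all WT secretin libraries in Car2, and WT secretin libraries lay below all WT libraries in Car2, while Car9 overlapped between all groups.

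The highest values of these genes in females were in dnTGFB library 3 and WT library 1, and Slc26a3 had 27.9 and 18.6 CPM there. Slc26a3 stood at 2.30 to 6.92 CPM in dnTGFB secretin, below all dnTGFB libraries, at 7.51 to 27.9 CPM. The dnTGFB secretin over dnTGFB change was -0.71 ± 0.39 for Slc4a4 (adjusted p 0.332), -0.20 ± 0.50 for Car2 (0.834), -0.58 ± 1.18 for Car9 (0.796) and -1.58 ± 0.75 for Slc26a3 (0.288). Biliary markers summed to 876, 7881 and 6114 CPM in dnTGFB secretin, 1633, 697 and 6052 CPM in dnTGFB, 4932, 126 and 291 CPM in WT secretin, and 4145, 844 and 4496 CPM in WT, and their part in these levels was not tested. Levels are scaled within each sex, so male and female CPM are not on exactly 1 scale.

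None of the 81 members tested passed edgeR's quasi-likelihood test in any of the 4 female comparisons of pairs of groups, and 0.0% of the 19882 genes were called. An unadjusted p under 0.05 was found for 24 members in dnTGFB over WT, which is 29.6%, against 19.4% of all genes tested. It was found for 35 in WT secretin over WT, 43.2% against 26.5%, for 13 in dnTGFB secretin over dnTGFB, 16% against 18.2%, and for 24 in dnTGFB secretin over WT secretin, 29.6% against 22.4%. DESeq2's Wald test called 6, 22, 3 and 9 of them, and 3.93%, 13.3%, 2.20% and 7.02% of all genes. Without WT secretin library 1, 27 members were called in WT secretin over WT, with 25.7% of all genes, and 21 in dnTGFB secretin over WT secretin, with 24%, in edgeR. That fit sets the libraries rich in heart muscle, which then make up the WT secretin group, against the others.

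Many members were highest or lowest in the female libraries that stood apart in content. In the 4 libraries rich in heart muscle markers, 19 of 81 members were higher than in all 8 others and 14 lower, while 27.0% and 15.1% of all genes were. Slc4a3, an anion exchanger of heart and brain, had 340 and 364 CPM in dnTGFB libraries 1 and 2 and 339 and 386 CPM in WT secretin libraries 2 and 3, against 19.8 to 44.0 CPM in the other 8. Car14, a membrane-bound enzyme known from muscle, had 117 to 174 CPM, against 2.12 to 10.6 CPM, and the muscle chloride channel gene Clcn1 11.6 to 19.7 CPM, against 0 to 0.544 CPM. The glycerol channel gene Aqp7, Ano10, Slc12a7 and Slc26a6 were likewise higher in these 4, and Aqp1, Slc9a3r1 and Slc9a9 lower.

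Female dnTGFB secretin library 1 and WT library 2 stood apart in genes of the kidney tubule. Aqp2 and Aqp3, the water channels of the collecting duct, had 17.5 and 20.7 CPM in the dnTGFB secretin library and 14.4 and 22.1 CPM in the WT library, against at most 4.34 and 1.94 CPM in the other 10. Slc12a3, the thiazide-sensitive cotransporter, had 25.1 and 31.2 CPM in these libraries, against at most 2.68 CPM, and Slc12a1, the loop diuretic target, 8.03 and 9.76 CPM, against at most 2.31 CPM. Pendrin, Slc26a4, had 4.06 and 4.32 CPM, against at most 0.999 CPM. Of 81 members, 21 were higher in both than in the other 10 libraries and 18 lower, while 15.7% and 19.3% of all genes were. The 10 kidney tubule markers summed to 539.0 and 541.2 CPM of the total in these libraries, against 32.2 to 280.9 CPM in the other 10. Within that list Kap, at 217 CPM in both, was little higher than in WT library 1 (201 CPM) and dnTGFB library 3 (196.5 CPM), while Umod was at 71.8 and 71.3 CPM, against at most 4.00 CPM. Squamous epithelium markers summed to 1899 and 1935 CPM. Their part in these levels was not tested.

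**Figure D5:**
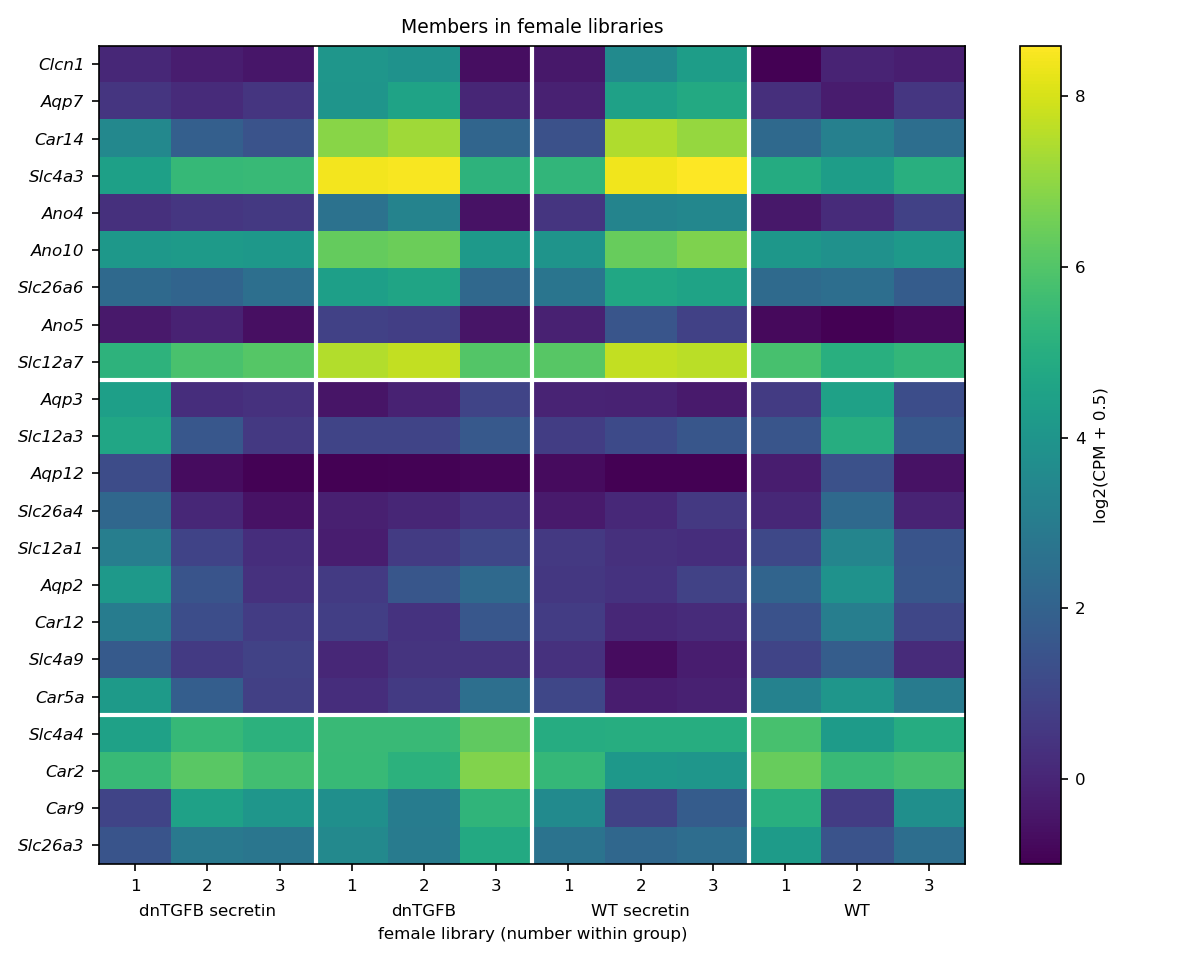
Log2(CPM + 0.5) of 22 genes (rows) in the 12 female libraries (columns, numbered within dnTGFB secretin, dnTGFB, WT secretin and WT). The upper 9 rows are members highest in dnTGFB libraries 1 and 2 and WT secretin libraries 2 and 3, the next 9 are members highest in dnTGFB secretin library 1 and WT library 2, and the last 4 are the bicarbonate genes that rose in male dnTGFB secretin mice.

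The difference between the secretin effects in female dnTGFB and WT mice was called for 20 members, 5 positive and 15 negative, 24.7% of those tested, while 18% of all genes were called, 4.03% positive and 13.9% negative. The count was 0 when any 1 of 10 of the 12 libraries was left out, with library totals as the scale and with the replicate block. It was 39 without WT secretin library 1, with 38.5% of all genes called, and 31 without dnTGFB library 3, with 31.0% of all genes. All 15 negative genes had their highest female values in the heart muscle libraries, which belong to the untreated dnTGFB and the WT secretin groups, led by Clcn1 (-10.07 ± 2.46), Aqp7 (-8.65 ± 2.02) and Car14 (-8.21 ± 2.10). The positive genes were Aqp12 (10.03 ± 2.84), Aqp3 (7.67 ± 2.21), Car5a (5.57 ± 1.56), Aqp8 (3.61 ± 1.00) and Aqp9 (3.52 ± 1.00). No member was called by edgeR without the 4 heart muscle libraries, when 0.0% of all genes were called. That fit leaves 1 dnTGFB and 1 WT secretin library, which are assumed to vary like the other groups.

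The transgene's effect was compared between the sexes as the male effect minus the female effect. Female dnTGFB libraries 1 and 2 carried Ddx3y at 46.8 and 58.3 CPM and Xist at 74.7 and 30.2 CPM, against 4.22 and 278.5 CPM in library 3. The sex of their RNA is thus in doubt, and the comparison cannot be read as one of sex alone. The difference was positive for Car10 (7.35 ± 1.18, adjusted p 0.00204), Ano3 (6.1 ± 1.06) and Slc4a10 (3.38 ± 0.77). It was negative for Slc26a7 (-4.89 ± 1.20), Slc12a7 (-2.17 ± 0.55) and Ano8 (-1.54 ± 0.44). In all, 8.75% of 80 members were called, while 6.86% of all genes were called, 4.45% positive and 2.42% negative. Car10 had 0.784 to 1.14 CPM in female dnTGFB and 1.70 to 6.00 CPM in female WT, opposite in order to the males. Without the 4 heart muscle libraries no member was called. Without these 4 libraries and male WT library 1 and dnTGFB library 3, a setting chosen after seeing the data, Car10 (5.53 ± 1.10, adjusted p 0.0131) and Ano3 (3.91 ± 0.99) were called, and so were Aqp5, Car2, Slc9a3r1 and Slc9a9, all negative, with 6.01% of all genes called. The same doubt holds for the secretin effect in WT. Male WT secretin libraries carried Xist at 34.0 to 42.4 CPM, and female WT secretin libraries 2 and 3 carried Ddx3y at 64.3 and 59.1 CPM. The secretin effect in WT did not differ between the sexes for any member in edgeR, with 0.0% of all genes called. At an unadjusted p under 0.05, 25 members differed there, 31.2% of those tested, against 22.4% of all genes, and DESeq2 called 14, with 9.39% of all genes.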

How the data were processed

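Per the labels' protocols, each library was made by poly(A) selection from 500 ng of total RNA. The authors deposited raw read counts per Ensembl gene, 49315 in each of 24 tables. How reads were aligned and counted, and whether by strand, is not stated in the sources used here. Symbols came from GENCODE M21 (48970 identifiers found), and coordinates are those of the tables, 44737 of which equal the GRCm38 annotation.

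Counts were tested with edgeR 4.0.16 in R 4.3.3 (TMM scaling, filterByExpr, robust quasi-likelihood F test, Benjamini-Hochberg over all genes tested), in 1 fit of 12 libraries per sex, and of all 24 for differences between sexes. A gene was called at an adjusted p under 0.05. Standard errors were derived from the log2 fold change and its F statistic and are approximate. The fits were also run on simulated counts with a fixed spread and no libraries of unusual content. That simulation does not measure error rates in these data, where libraries of a group differed in content. DESeq2 1.42.0, other scalings and filters and left-out libraries were alternatives.

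Named genes had an adjusted p under 0.05, no overlap between groups and at least 1 CPM in the higher group, up to 12 in each direction, with 8 genes known in secretory epithelium and the 2 highest of each family. Others were named after their values were seen. The results of 2 of the genes are not reported here, though counts over all genes include them. The members and lists were chosen with earlier results of these data known, and the kidney markers after seeing the data. Depth was 1429218 to 104003184 counts per library. Where a count is 0, a floor of 3 counts is given, which covers counting error only.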

Additional observations from a re-analysis of the deposited data

Results flagged for a closer look

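The results below were picked out because an effect differed between the genotypes or between the sexes by a test of the difference itself in edgeR. Each value is a difference of log2 fold changes with its SE, no cause was tested, and a test over this many genes gives some calls by chance.

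In males, the secretin effect in dnTGFB minus that in WT was positive for Car9 (3.80 ± 0.35), Slc26a3 (3.69 ± 0.42), Aqp5 (3.23 ± 0.57), Car2 (2.80 ± 0.31), Slc4a4 (1.96 ± 0.22), Slc26a2 (1.57 ± 0.41), Slc9a9 (1.37 ± 0.31), Slc12a8 (1.23 ± 0.28) and Ano6 (1.17 ± 0.34). It was negative for Car10 (-4.37 ± 1.12), Car3 (-2.58 ± 0.46), Car7 (-2.06 ± 0.35) and Slc26a6 (-1.17 ± 0.31). The biliary marker sums were highest in dnTGFB secretin, at 8971 to 9122 CPM, and lay at 1018 to 1079 CPM in dnTGFB. They were 3597 to 3645 CPM in WT secretin and 2300 to 5559 CPM in WT. Not all positive genes had this order. Aqp5 and Slc9a9 were higher in every WT library than in any dnTGFB secretin library, and Slc12a8 was higher in every WT secretin library. The part of the biliary markers in the result was not tested. The male WT secretin libraries carried Xist at 34.0 to 42.4 CPM, so the sex of their RNA is in doubt.

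In females, the same difference was negative for Clcn1 (-10.07 ± 2.46), Aqp7 (-8.65 ± 2.02), Car14 (-8.21 ± 2.10), Slc4a3 (-5.99 ± 1.30), Ano5 (-5.92 ± 1.36), Ano4 (-5.70 ± 1.70), Slc9a2 (-4.80 ± 1.42), Slc26a6 (-4.02 ± 0.92), Ano10 (-3.87 ± 0.96), Slc12a7 (-3.38 ± 0.73), Ano8 (-2.34 ± 0.50), Slc4a7 (-1.98 ± 0.57), Clcn4 (-1.75 ± 0.42) and Clcn3 (-1.0 ± 0.30). The genes with a positive difference were highest in dnTGFB secretin library 1 and WT library 2. They were Aqp3 (7.67 ± 2.21), Car5a (5.57 ± 1.56), Aqp8 (3.61 ± 1.00) and Aqp9 (3.52 ± 1.00). None of these was called without the 4 libraries rich in heart muscle, nor when any 1 of 10 of the 12 female libraries was left out.

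The effect of the transgene in males minus that in females was 7.35 ± 1.18 for Car10, 6.10 ± 1.06 for Ano3, 3.38 ± 0.77 for Slc4a10, -1.54 ± 0.44 for Ano8, -2.17 ± 0.55 for Slc12a7 and -4.89 ± 1.20 for Slc26a7. Neuronal markers were at 5663 CPM and kidney tubule markers at 975.4 CPM in male dnTGFB library 3 and heart muscle markers at 56440 and 56910 CPM in female dnTGFB libraries 2 and 1, and their part was not tested. These female libraries also carried the Y-linked gene Ddx3y, at 58.3 and 46.8 CPM, so the sex of their RNA is in doubt.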

How the results depend on the processing

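Over the alternatives, 116 counts of called members stayed within 1.5 times the reported count and 71 did not. Those that stayed include counts of 0 in both fits. These made up most alternatives of the female pairs of groups and of the sex difference of WT secretin over WT, so the 116 overstate how stable the counts with calls were. For single members, 4245 values kept their side of the threshold, 508 lost and 182 gained the call, and 15 reversed. Direction was compared only where the reported fit or the alternative called the member, so the 4245 can include uncalled values that changed sign. Without male WT library 1 and dnTGFB library 3, the male counts were 45 for dnTGFB over WT (19 as reported), 28 for WT secretin over WT (3), 42 for dnTGFB secretin over dnTGFB (26), 41 for dnTGFB secretin over WT secretin (13) and 46 for the difference of secretin effects (14). With only the 6 libraries compared they were 0, 18, 7 and 43 for the 4 pairs. For WT secretin over WT the count was also 0 with library totals and with the replicate block, 1 without a low-count filter and 9 with DESeq2, and the male difference of effects had 32 with DESeq2. In females, DESeq2 called 6, 22, 3 and 9 members for dnTGFB over WT, WT secretin over WT, dnTGFB secretin over dnTGFB and dnTGFB secretin over WT secretin. The female difference of effects (20) had 34 with DESeq2, and 0 with library totals, with the replicate block, without the heart-rich libraries and without near-identical libraries. The sex difference of dnTGFB over WT (7) had 4 with library totals, 17 with DESeq2, 12 without male WT library 1 and dnTGFB library 3, and 0 without the heart-rich libraries. That of WT secretin over WT (0) had 14, 3 and 22 with DESeq2, without those 2 male libraries and without near-identical libraries, and 2 without those male and the heart-rich libraries together, a setting chosen after seeing the data. Where a group was left with 1 library, it was assumed to vary like the others. Of all genes, DESeq2 called 31.6% for the female difference of effects. It called 12.5% for the sex difference of dnTGFB over WT and 9.39% for that of WT secretin over WT. Without male WT library 1 and dnTGFB library 3, 8.80% and 1.78% of all genes were called for these sex differences.

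Leaving out 1 library gave 9 to 32 members for male dnTGFB over WT (9 and 10 without WT library 3 or 2, 32 without dnTGFB library 3), 0 to 3 for WT secretin over WT, 10 to 36 for dnTGFB secretin over dnTGFB (36 without dnTGFB library 3, 10 or 11 without any dnTGFB secretin library), 7 to 9 for dnTGFB secretin over WT secretin and 8 to 34 for the difference of effects. In females it gave 0 to 27 for WT secretin over WT and 0 to 21 for dnTGFB secretin over WT secretin, both above 0 only without WT secretin library 1, and 0 to 39 for the difference of effects, with 0 in 10 of the 12 fits, 39 without WT secretin library 1 and 31 without dnTGFB library 3. The sex differences ranged over 5 to 21 (21 without female dnTGFB library 3) and 0 to 22. Calls over all genes moved with these counts. For male dnTGFB secretin over dnTGFB, 727 genes were higher and 321 lower without dnTGFB secretin library 1. Without dnTGFB library 3 these were 3677 and 3570. The male difference of effects then had 3963 positive and 3361 negative of 19400 genes. Without female dnTGFB library 3, the sex difference of dnTGFB over WT had 1566 positive and 1817 negative of 21351 genes. Without female WT secretin library 1, 21.2% of all genes were called for the sex difference of WT secretin over WT.

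Reversed values without male WT library 1 and dnTGFB library 3 were -0.33 for Clcn3, 0.36 for Slc12a4 and -0.37 for Slc4a3 in dnTGFB over WT, -0.07 for Aqp1 and 0.51 for Slc4a3 in dnTGFB secretin over dnTGFB, and -0.28 for Slc12a4 and 0.53 for Slc4a3 in the difference of effects. Leaving out 1 library gave -0.26 to 0.28 for Slc12a4 in dnTGFB over WT and -0.41 to 0.52 for Slc4a3 in dnTGFB secretin over dnTGFB, the highest values without dnTGFB library 3. With library totals, Slc26a6 was 0.12 and Slc9a3r2 0.76 in dnTGFB secretin over dnTGFB. Without the heart-rich libraries, Ano10 was 0.19, Ano4 2.01, Aqp7 1.33 and Car14 2.01 in the female difference of effects. The cause of these changes was not tested.

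Deviations of same-numbered libraries from their group means had a median r of -0.00103 over 18 male pairs (-0.154 to 0.224). Over 18 female pairs it was -0.141 (-0.786 to 0.823). Such deviations cancel within a group, which holds the median low, so this check cannot tell whether the numbers pair the samples. With the replicate block the male counts were 14, 0, 21, 10 and 11, in the order above. The depth of male dnTGFB library 3 limits low genes, since 3 counts there are 2.10 CPM of the total, or 1.76 CPM after TMM scaling.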
